A study of Drosophila melanogaster with 24 samples.

Results

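Dissected wings of w1118 flies at 6 h after puparium formation (APF) were compared with dissected wings at 2 h APF, the step from an everting disc to an elongating prepupal wing. The members are 8 of the 24 arrays of the series, chosen by their titles: samples A, B, D and E of 6 h APF and samples B, C, D and E of 2 h APF. Each sample was an independently obtained pool of 10 wings, all animals carried the same w1118 background with no other allele and no treatment, and both stages were dissected with the presumptive notum still attached. A stage field in the labels gives 36 h for the 6 h arrays and 24 h for the 2 h arrays, so that it differs from the title and description for all 8, and the titles and descriptions were followed. The other arrays, from the wandering larval stage (L3) and from 18, 24 and 36 h APF, serve here as background, and samples from 18 h APF onward were dissected without notum.

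Prepupal development is paced by the steroid hormone ecdysone. A pulse at the end of larval life triggers puparium formation, the titre then drops, and a further pulse ends the prepupal period. In this interval the wing disc turns inside out, its pouch extends, the basement membrane under the epithelium is remodelled, and the wing cells pause in G2 before their last division.

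Each array gave 1 value per transcript, the log2 of an RMA intensity (a probe-set summary made after all arrays were normalized together), for 15473 transcripts, and medians of the 8 arrays lay between 9.37 and 9.55. Arrays of 6 h APF correlated with each other at r = 0.978 to 0.992, arrays of 2 h APF at 0.985 to 0.991, and arrays of different stages at 0.927 to 0.940. Sample B of 6 h APF stood furthest from its stage, with 990 transcripts more than 2-fold from the mean of the other 3 arrays, against 208 to 504 for samples A, D and E. Calls were made with limma, fitted to the 23 arrays that hold independent samples, where the p adjusted over the whole array by Benjamini-Hochberg was under 0.05. The files carry transcript identifiers alone. A Release 6 gene table tied 17 transcripts to a single gene and 27 to several genes. The tie of 8 of the 17 was through a synonym for an open reading frame, as for the 27. These were fend, SuUR, NaPi-III, HDAC3, Fatp1, CG16974, rdx and CG31178, and whether their transcripts carry further genes is not known here. All 44 transcripts are described whatever their values. None of 25 marker genes of wing epithelium, hemocytes, muscle precursors, trachea, fat body and neurons was among them, so the labelled tissue was not checked against markers. In whole wings, fewer cells of a type and less RNA per cell cannot be told apart.

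Of the 17 single genes, 6 fell and 2 rose at 6 h APF, 47.1% of them against 35.4% of all transcripts on the array (20.4% lower and 15.0% higher). Signal was above the median for 15 of the 17, and of all transcripts above it 49.0% were called (30.2% lower and 18.8% higher). The falls were led by sle and LanA and included mio, fend, Uba1 and SuUR. The rises were those of His4r and rdx. On 9 of the 17 genes every 6 h array was below every 2 h array and on 2 every 6 h array was above, where 20.5% and 15.6% of all transcripts had such non-overlapping arrays. The log2 differences of the 17 had a median of -0.23, and the median over the whole array was -0.03. Values below are log2 intensities in the order A, B, D, E at 6 h APF and B, C, D, E at 2 h APF.

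LanA encodes the laminin alpha chain, a core component of basement membranes. It read 11.12, 11.18, 10.81 and 11.20 at 6 h APF, against 12.17, 12.60, 12.27 and 12.42 at 2 h APF. All 4 arrays of 6 h APF lay below the lowest of 2 h APF, by almost a whole log2 unit. The log2 difference was -1.28 (standard error 0.26), a 2.44-fold fall (adjusted p = 0.00042 from limma). LanA was the 1 gene of an 8-gene basement membrane list that could be tied to a transcript, so nothing can be said of the other laminin and collagen chains. The spectrin transcript alpha-Spec, which encodes part of the cortical membrane skeleton, had overlapping arrays, 12.52, 12.54, 12.22 and 12.73 at 6 h APF and 12.47, 12.82, 12.61 and 12.57 at 2 h APF. Its log2 difference of -0.12 had a 95% interval from -0.41 to 0.18 (adjusted p = 0.56 from limma). The axon guidance gene fend was dim, with 8.72, 8.31, 8.56 and 8.71 at 6 h APF and a tight 9.42, 9.44, 9.37 and 9.42 at 2 h APF. Its arrays did not overlap, and it fell by 0.84 on the log2 scale (standard error 0.24, adjusted p = 0.0099 from limma).

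The nucleolar gene sle showed the largest change of the 17. Its transcript read 10.96, 11.18, 11.23 and 10.94 at 6 h APF, against 12.49, 12.72, 12.55 and 12.60 at 2 h APF. The 4 arrays of each stage lay close together and the stages were far apart. The transcript fell by 1.52 on the log2 scale (standard error 0.16), or 2.86-fold (adjusted p = 2.4e-07 from limma). It was also the only tied member of a 7-gene ribosome biogenesis list. The fall was larger than the change from L3 to 2 h APF, which was -0.67, and the difference of these steps passed its own limma contrast (-0.84, adjusted p = 0.038).

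Both mio and Wdr24 encode subunits of GATOR2, a complex that promotes TORC1 signalling in response to amino acids. Transcripts of mio read 9.60, 9.04, 9.39 and 9.28 at 6 h APF and 10.05, 10.24, 9.87 and 10.14 at 2 h APF, without overlap, and fell by 0.74 (standard error 0.21, adjusted p = 0.007 from limma). Wdr24 did not pass the test, with 12.43, 12.32, 12.38 and 12.14 at 6 h APF and 12.001, 12.42, 12.03 and 12.22 at 2 h APF. Its log2 difference was 0.15 with a 95% interval from -0.15 to 0.45 (adjusted p = 0.45 from limma). The contrast between the 2 genes was not tested. Wdr24 had fallen by 0.56 between L3 and 2 h APF (adjusted p = 0.0064 from limma), and its steps before and after 2 h APF differed (0.71, adjusted p = 0.042).

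The 2 genes of the ubiquitin pathway went in opposite directions. Uba1, the enzyme that activates ubiquitin at the start of the cascade, read 13.17, 13.22, 12.90 and 13.29 at 6 h APF, against 13.67, 13.91, 13.63 and 13.95 at 2 h APF. It fell by 0.65 (standard error 0.16, adjusted p = 0.0034 from limma) and its arrays did not overlap. The transcript of rdx, which directs Cul3 ubiquitin ligase to Ci, the transcription factor of Hedgehog signalling, was among the brightest on the array, at 15.68, 15.57, 15.55 and 15.59 at 6 h APF and 14.97, 15.26, 15.29 and 14.72 at 2 h APF. All 6 h arrays were above all 2 h arrays, and the 2 h arrays were the more scattered, with SD 0.27 against 0.06 at 6 h APF. It rose by 0.54 (standard error 0.12), or 1.45-fold (adjusted p = 0.0018 from limma). RMA signals at this height are near the top of the scale, where differences can be compressed.

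Among 4 chromatin genes, His4r rose and SuUR fell. His4r encodes a replacement histone H4 that is made outside S phase. It read 10.29, 9.92, 10.28 and 10.36 at 6 h APF and 9.74, 8.89, 9.42 and 9.52 at 2 h APF, with sample B low among the 6 h arrays and sample C low among the 2 h arrays, and no overlap. The log2 difference was 0.82 (standard error 0.26, adjusted p = 0.018 from limma). The call was lost without sample C of 2 h APF (0.65, adjusted p = 0.076) and when the pooled 36 h array was kept in the fit (adjusted p = 0.098). Histone H4 has many gene copies, and whether the probes separate His4r from them is not known here.

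SuUR, which holds back replication of late-replicating DNA in polytene tissue, read 11.06, 11.35, 10.77 and 10.84 at 6 h APF and 11.53, 11.94, 11.56 and 11.53 at 2 h APF. It fell by 0.64 (standard error 0.16, adjusted p = 0.004 from limma), and its steps before and after 2 h APF differed by -1.07 (adjusted p = 0.0082). The chromatin remodeller kis read 13.24, 13.31, 12.98 and 13.32 at 6 h APF and 13.36, 13.70, 13.70 and 13.39 at 2 h APF, and the deacetylase HDAC3 12.83, 12.71, 12.81 and 12.77 at 6 h APF and 13.22, 12.93, 12.99 and 12.92 at 2 h APF. Neither set of arrays overlapped, yet neither gene passed the test, with log2 differences of -0.32 for kis (adjusted p = 0.093 from limma) and -0.23 for HDAC3 (adjusted p = 0.051). HDAC3 passed it in 7 of 23 alternative fits. These included limma fits without sample C of 2 h APF (adjusted p = 0.046) or without sample E (0.048). The others had a random block for slide, no moderation, a trended and robust eBayes, dim transcripts left out or a pseudocount of 50. However, HDAC3 stood at -0.17 without sample B of 2 h APF (0.18) and at -0.11 under cyclic loess (0.35). Between L3 and 2 h APF it had already fallen by 0.58 (adjusted p = 8.3e-05 from limma).

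The sodium-dependent phosphate cotransporter NaPi-III read 10.05, 10.15, 10.15 and 10.00 at 6 h APF and 10.67, 10.48, 10.62 and 10.82 at 2 h APF. The arrays did not overlap, but the log2 difference of -0.56 missed the threshold in the fit of all stages (standard error 0.22, adjusted p = 0.054 from limma) and passed it when the 8 arrays were fitted alone (adjusted p = 0.0053). Between L3 and 2 h APF NaPi-III had already fallen by 1.36 (adjusted p = 0.00011 from limma), and its mean was 7.65 at 36 h APF. NaPi-III varied more among the arrays of 18 and 24 h APF, with SD 0.60 and 0.40, than among those of 6 h APF, with SD 0.08, or 2 h APF, with SD 0.14. The fatty acid transport protein Fatp1 had the same mean, 11.78, at both stages, with 11.69, 11.77, 11.93 and 11.73 at 6 h APF inside the range of 11.55, 12.16, 12.13 and 11.27 at 2 h APF. Its 2 h arrays split into a high pair and a low pair, and the interval of the difference ran from -0.36 to 0.36.

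The remaining genes did not pass the test. The kinase gene Dyrk3 averaged 13.01 ± 0.14 at 6 h APF and 13.03 ± 0.08 at 2 h APF (SD, n = 4 each), with an interval of the difference from -0.29 to 0.23. CG16974 averaged 13.21 ± 0.14 at 6 h APF and 13.08 ± 0.18 at 2 h APF (SD, n = 4 each), with an interval from -0.14 to 0.41. CG31178 was the dimmest of the 17, at 5.47 ± 0.19 at 6 h APF and 5.46 ± 0.29 at 2 h APF (SD, n = 4 each), where a signal above background cannot be assumed. On all 8 called genes the arrays of the stages did not overlap. Their direction on each of the 3 slides that held both stages was therefore fixed and adds no support.

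**Figure D1:**
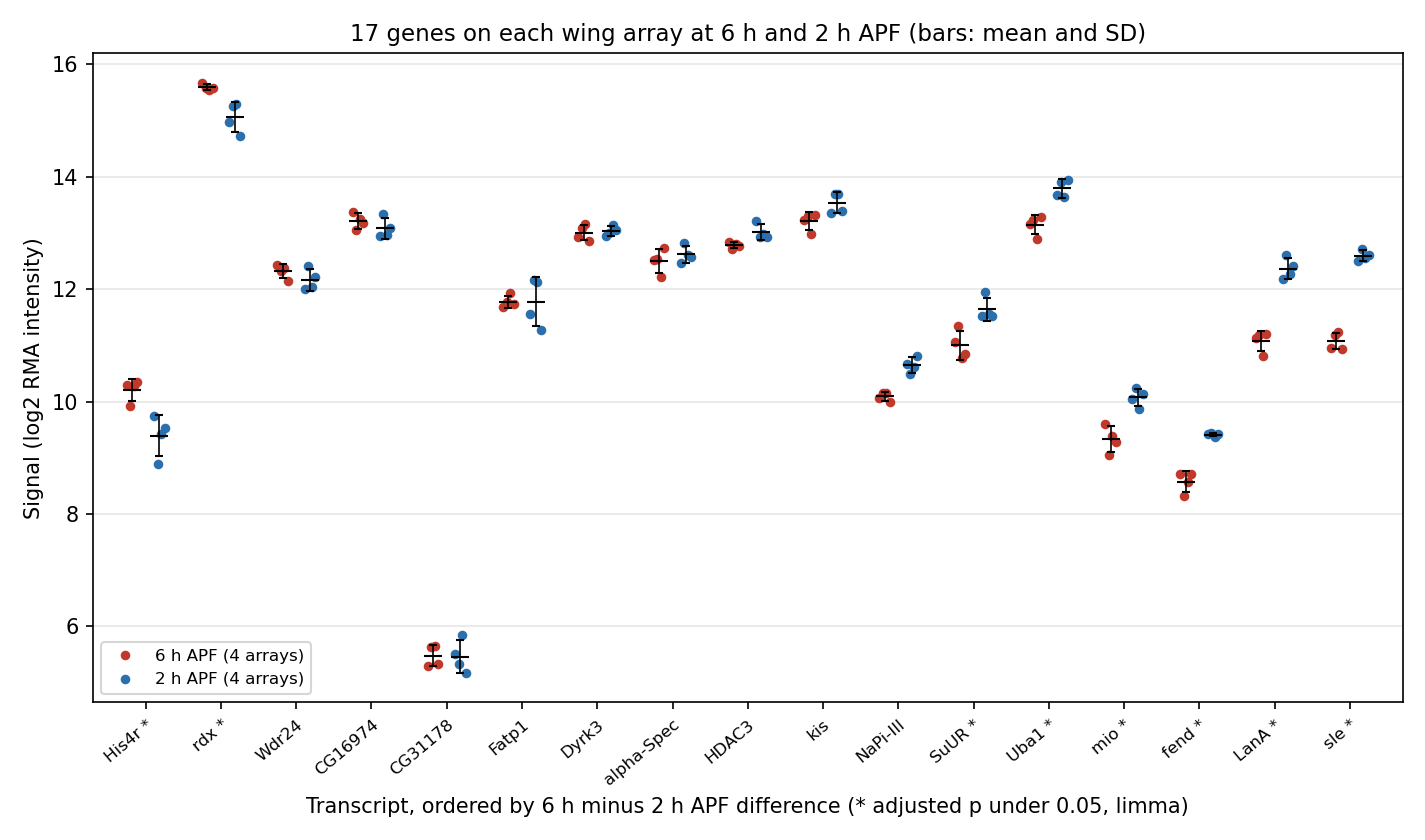
Log2 RMA intensity of the 17 genes on each of the 4 arrays of 6 h APF (red) and the 4 arrays of 2 h APF (blue), with bars for the mean and SD, ordered by the difference of the stages, and asterisks for an adjusted p under 0.05 in limma. The arrays of sle and LanA at the right separate most widely, and those of rdx and His4r at the left lie higher at 6 h APF.

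A further 27 transcripts are listed in the gene table as carriers of an upstream and a main open reading frame that count as separate genes, so that 1 array value stands for 2 or more of them and cannot be divided. They are written upstream/main. The order below, by known roles, was set after their values were seen, and no share is drawn from it. At 6 h APF 11 of these fell and 3 rose, 51.9% against 35.4% of all transcripts, with a median log2 difference of -0.33. The arrays were fully apart for 9 of the 27 that were lower and 3 that were higher, where 20.5% and 15.6% of all transcripts had such arrays. Transcripts above the median signal were called more often over the whole array too, in 49.0% of cases (30.2% lower and 18.8% higher), and 23 of the 27 and 15 of the 17 single genes were above it.

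The transcript of CG42488/CG5116 fell most, with 9.32, 8.91, 9.35 and 9.09 at 6 h APF against 11.15, 10.82, 10.93 and 10.88 at 2 h APF. No arrays came near to overlapping, and the fall was 3.44-fold, a log2 difference of -1.78 (standard error 0.16, adjusted p = 1.5e-08 from limma). Dpm2, a subunit of the enzyme that makes dolichol-phosphate-mannose, shares a transcript with CG12016 that read 10.20, 10.19, 10.20 and 9.66 at 6 h APF and 11.21, 11.41, 11.16 and 11.06 at 2 h APF. It fell by 1.15 (standard error 0.22, adjusted p = 0.00028 from limma), with sample E of 6 h APF lowest. The transcript that ends in PIG-M, the mannosyltransferase that adds the first mannose of the anchor, fell by 0.38 (adjusted p = 0.004), and Tcs6/PIG-P by 0.49 (adjusted p = 0.0036), where the highest 6 h array, 13.47, lay above the lowest 2 h array, 13.39. With the 8 arrays fitted alone Tcs6/PIG-P missed the threshold (adjusted p = 0.052 from limma).

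Rpp14a/CG7950, with a subunit of RNase P, read 11.60, 11.44, 11.36 and 11.48 at 6 h APF and 12.55, 11.98, 12.22 and 12.24 at 2 h APF, and fell by 0.78 (standard error 0.13, adjusted p = 9.1e-05 from limma). CG42516/Pbp49, with a subunit of the snRNA activating complex, fell by 0.42 (adjusted p = 0.0012), and moi/Tgs1, with a telomere capping protein and the enzyme that hypermethylates snRNA caps, also by 0.42 (adjusted p = 0.0055). Neither had overlapping arrays, and moi/Tgs1 missed the threshold under cyclic loess (adjusted p = 0.057). Between L3 and 2 h APF all 3 had already fallen. Rpp14a/CG7950 fell then by 0.63, CG42516/Pbp49 by 0.34 and moi/Tgs1 by 0.69 (adjusted p = 0.0017, 0.012 and 0.00011 from limma). Polr3K/Tcs1, with an RNA polymerase III subunit, had a log2 difference of -0.15 (95% interval -0.60 to 0.30), Tfb5/CG31917, with a TFIIH subunit, -0.11 (-0.30 to 0.09), and CG42374/Mettl5, with an rRNA methyltransferase, 0.10 (-0.20 to 0.39), and none of these passed the test.

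Several transcripts of other roles also fell. CG42455/vnc, with a catalytic subunit of an N-terminal acetyltransferase, read 11.01, 10.13, 10.90 and 10.75 at 6 h APF and 11.37, 11.35, 11.44 and 11.33 at 2 h APF, and sample B of 6 h APF was far below the other 3. It fell by 0.67 (standard error 0.15, adjusted p = 0.001 from limma). The transcript of lmgA/lmgB, from the locus of an anaphase-promoting complex subunit, read 12.16, 12.75, 12.32 and 12.15 at 6 h APF and 13.17, 13.34, 12.87 and 12.86 at 2 h APF, with sample B this time the highest of 6 h APF, and fell by 0.72 (standard error 0.17, adjusted p = 0.0016). CG42375/CG9288 fell by 0.34 (adjusted p = 0.013 from limma, and 0.097 under cyclic loess). The vnc, lmg and CG5116 transcripts also passed the contrast of the steps before and after 2 h APF (-0.74, -1.12 and -1.36, adjusted p = 0.041, 0.0066 and 0.001 from limma).

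CG45089/ND-MNLL, with a subunit of respiratory complex I, rose by 0.82 (standard error 0.26, adjusted p = 0.019 from limma), at the dim levels of 8.06, 7.14, 7.60 and 7.42 at 6 h APF and 6.77, 6.29, 7.05 and 6.84 at 2 h APF. Without sample A of 6 h APF or sample C of 2 h APF it did not pass (adjusted p = 0.077 and 0.074 from limma). CG42497/Tim10, with a chaperone of the intermembrane space, read 13.57, 13.21, 13.69 and 13.60 at 6 h APF and 14.11, 13.64, 13.73 and 13.90 at 2 h APF. It fell by 0.33 with overlapping arrays and an adjusted p of 0.049 from limma. Leaving out sample B of either stage, sample E of either stage or sample A of 6 h APF put it at 0.059 to 0.18.

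The last 2 rises were also close to the threshold. CG45085/CG8026 read 11.29, 11.82, 11.63 and 11.49 at 6 h APF and 11.20, 11.24, 11.20 and 10.99 at 2 h APF, barely without overlap, and rose by 0.40 (standard error 0.15, adjusted p = 0.035 from limma). It did not pass without sample B or D of 6 h APF or sample B, D or E of 2 h APF, with adjusted p from 0.053 to 0.12. Between L3 and 2 h APF it had already risen by 0.67 (adjusted p = 0.0019 from limma). CG42372/CG30100 rose by 0.50 (standard error 0.18, adjusted p = 0.035 from limma), but its 2 h arrays of 12.20, 11.28, 11.69 and 11.59 reached into the 6 h arrays of 12.26, 11.96, 12.23 and 12.30. It did not pass without sample A, D or E of 6 h APF or sample C, D or E of 2 h APF, with adjusted p from 0.062 to 0.14. Its level had fallen by 0.67 between L3 and 2 h APF (adjusted p = 0.011 from limma). The steps before and after 2 h APF differed (1.17, adjusted p = 0.0091 from limma), with means of 12.35 in L3, 11.69 at 2 h and 12.19 at 6 h APF. The other 10 transcripts that missed the test had log2 differences from -0.76 for CG42502/CG10570, whose arrays scattered by SD 0.41 at 6 h APF and 0.50 at 2 h APF, to 0.25 for CG42512/CG32573. Of these, CG42305/CG17325 passed without sample D of 6 h APF (-0.70, adjusted p = 0.045 from limma), and Muted/CG7071, higher on every 6 h array, passed under cyclic loess (0.30, adjusted p = 0.037).

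**Figure D2:**
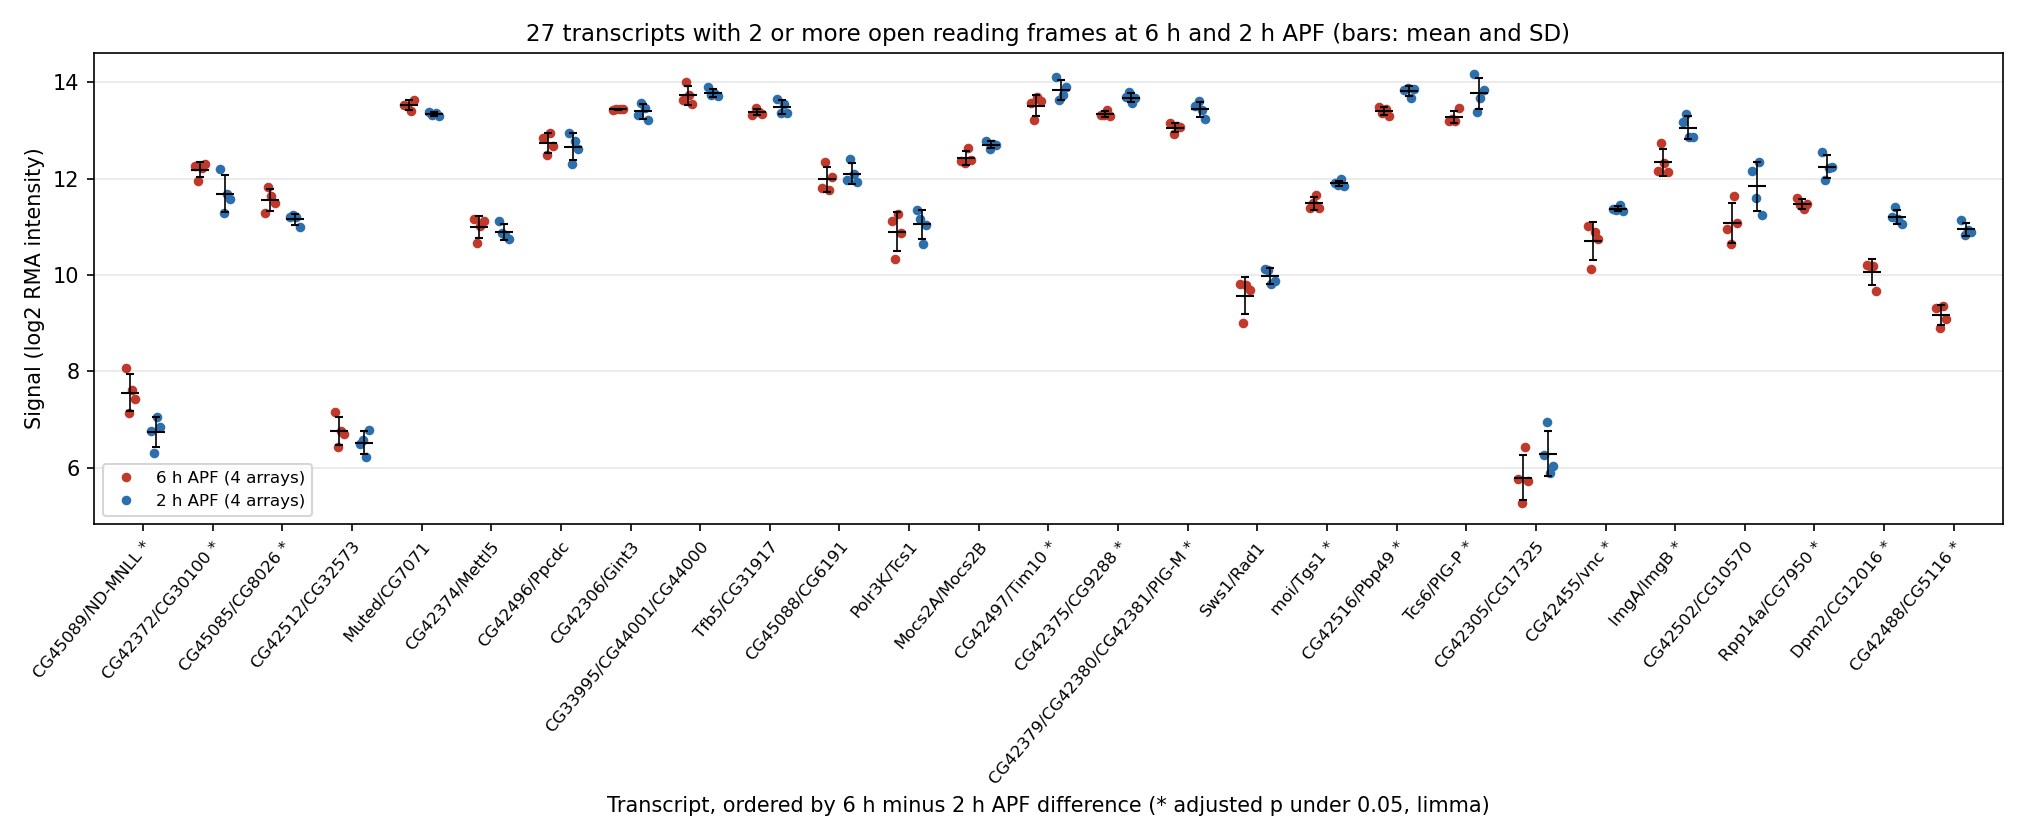
Log2 RMA intensity of the 27 transcripts with 2 or more open reading frames on each of the 4 arrays of 6 h APF (red) and the 4 arrays of 2 h APF (blue), with bars for the mean and SD, ordered by the difference of the stages, and asterisks for an adjusted p under 0.05 in limma. CG42488/CG5116 and Dpm2/CG12016 at the right are lower at 6 h APF on every array, and CG42306/Gint3 near the middle reads alike at both stages.

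Over the array 5471 of 15473 transcripts changed, 2314 upward and 3157 downward, in limma. Falls were more numerous among small changes and rises among large ones. Under 1.5-fold there were 498 rises and 811 falls, and between 1.5-fold and 2-fold 599 rises and 1096 falls. Between 4-fold and 8-fold the numbers were nearly equal, 254 rises and 248 falls. From 8-fold to 32-fold there were 199 rises and 77 falls, and over 32-fold 90 rises and 2 falls. The median rise was 2.07-fold and the median fall 1.81-fold, and the 90th percentile of the rises was 10.2-fold and that of the falls 4.06-fold. The balance of all rises and falls moved with scaling, and under cyclic loess 2888 transcripts rose and 2739 fell.

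**Figure D3:**
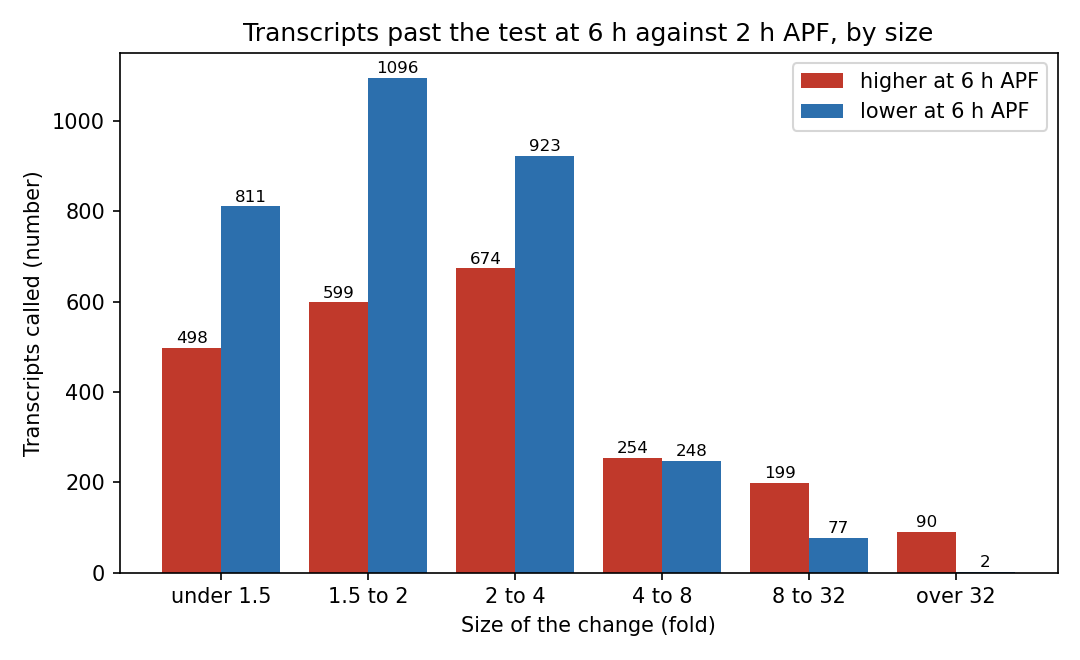
Number of transcripts past the limma test at 6 h against 2 h APF in 6 classes of fold change, higher at 6 h APF in red and lower in blue. Falls outnumber rises below 4-fold, the counts are 254 and 248 between 4-fold and 8-fold, and above 32-fold 90 transcripts rose and 2 fell.

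The largest changes belonged to transcripts without a gene name. FBtr0077401 read 14.49, 14.38, 14.61 and 14.58 at 6 h APF and 5.91, 5.72, 6.03 and 6.95 at 2 h APF, a log2 difference of 8.36 (standard error 0.37, adjusted p = 4.5e-13 from limma). FBtr0077402 read 14.30, 14.003, 14.47 and 14.19 at 6 h APF and 6.24, 6.01, 6.18 and 5.22 at 2 h APF, a log2 difference of 8.33 (standard error 0.32, adjusted p = 4.2e-14). Both were near the bottom of the scale at 2 h APF and near the top at 6 h APF, and whether they share probes or a gene is not given in the sources used here. Because no background call accompanies the 2 h levels, the folds are inexact.

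At the other end, FBtr0078461 read 7.63, 7.84, 7.53 and 7.99 at 6 h APF and 12.75, 12.81, 12.63 and 13.12 at 2 h APF, and fell by 5.08 on the log2 scale (standard error 0.17, adjusted p = 8.1e-15 from limma). FBtr0084754 read 7.47, 7.15, 7.85 and 7.51 at 6 h APF and 11.59, 13.21, 12.66 and 12.55 at 2 h APF, and fell by 5.01 (standard error 0.36, adjusted p = 5.8e-10). Both were higher again at 18 h APF. FBtr0078461 stood at 12.90 in L3 and 14.35 at 18 h APF, and FBtr0084754 at 9.66 in L3 and 13.51 at 18 h APF.

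**Figure D4:**
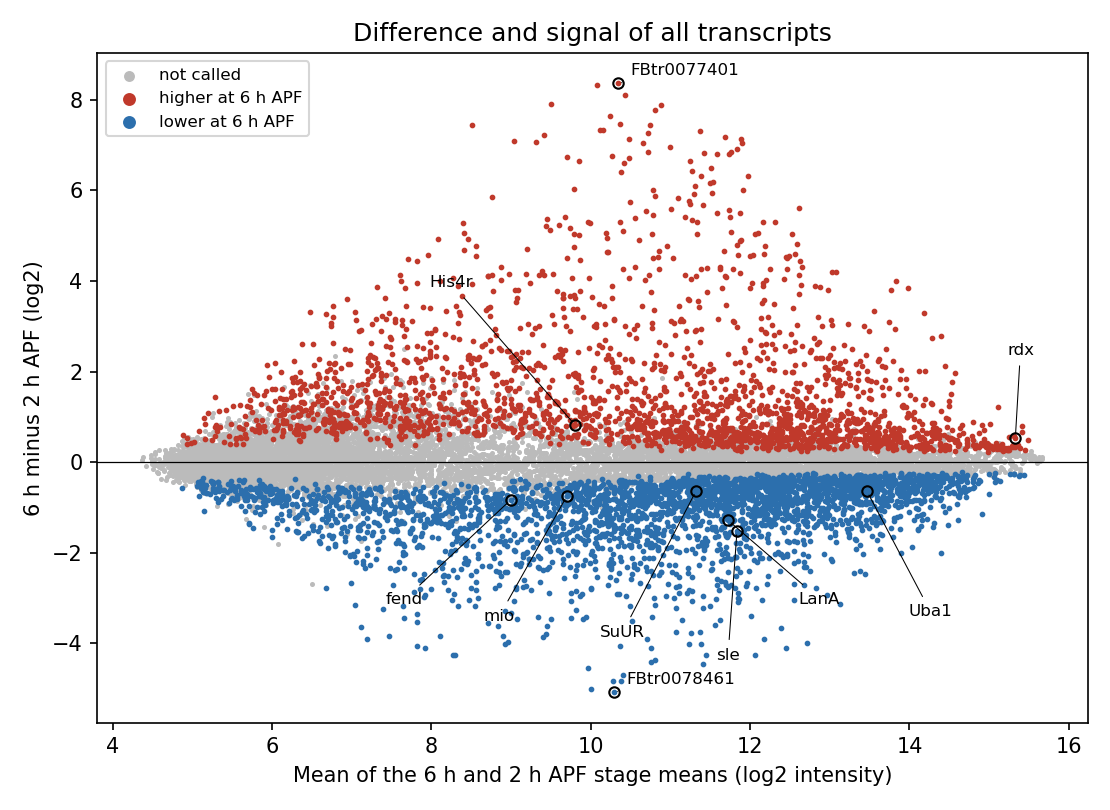
Difference between 6 h and 2 h APF (log2, vertical) against the mean of the stage means (log2 intensity, horizontal) for all 15473 transcripts, with called rises in red, called falls in blue, the rest in grey, and 8 named genes and 2 unnamed transcripts circled. The red points reach 8.36 and the blue points -5.08, and the circled named genes lie between -1.52 for sle and 0.82 for His4r.

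Transcripts that changed by over 8-fold are described next by their level at all stages. By choice they differ at 6 and 2 h APF. The 289 that rose had a median log2 value of 7.77 in L3, 8.13 at 2 h, 13.06 at 6 h, 8.42 at 18 h, 8.15 at 24 h and 9.38 at 36 h APF, and 246 of them (85.1%) were highest at 6 h APF. Over all transcripts 15.8% were highest at that stage. Of the 289, 195 (67.5%) were above the median signal of the arrays at 6 h APF and not at 2 h APF. The 79 that fell had medians of 11.35 in L3, 12.27 at 2 h, 8.17 at 6 h, 10.74 at 18 h, 9.93 at 24 h and 10.23 at 36 h APF, and 49 of them (62%) were lowest at 6 h APF, against 20% of all transcripts. Sample B of 6 h APF read lower among the large rises: over 298 transcripts that rose by over 8-fold without it, it was a median of 0.47 below the other 6 h arrays and the lowest of its stage in 66.8%. Among 2 h arrays sample E was lowest in 51.5% of the large rises chosen without it and sample D highest in 50.7%.

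**Figure D5:**
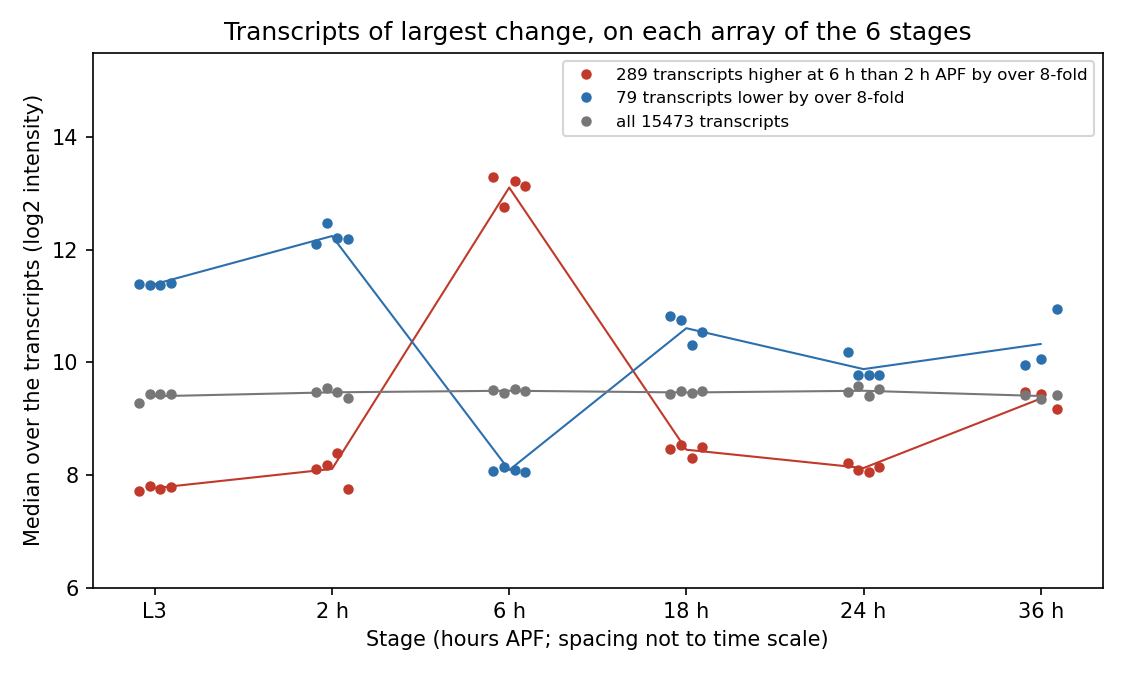
Median log2 RMA intensity on each array of the 6 stages, in time order, for the 289 transcripts higher at 6 h than at 2 h APF by over 8-fold (red), the 79 lower by over 8-fold (blue) and all 15473 transcripts (grey), with lines through the stage means of these medians. The red medians reach 12.77 to 13.30 at 6 h APF and 7.74 to 8.40 at 2 h APF, the blue medians 8.06 to 8.13 at 6 h APF and 12.11 to 12.49 at 2 h APF, and the grey ones stay level.

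The same lists were then followed at other stages, whose arrays entered the calls above only through the spread of each transcript. At 36 h against 24 h APF, where 20.5% of all transcripts were higher and 29.6% lower (50.0% in all), 53.3% of the 289 large risers were higher and 11.1% lower, with a median change of 0.95. All 2314 risers were higher in 36.6% and lower in 18.6% of cases at that step. All 3157 fallers were lower in 56.2% and higher in 10.0%, with a median change of -0.53, but the 79 large fallers were split, with 24.1% higher and 26.6% lower. At 18 h APF against L3, 13.0% of all transcripts were higher and 14.3% lower. There 27.9% of risers were higher and 13.8% lower, and 31.1% of fallers were lower and 10.5% higher. Of the 289 large risers 34.6% were higher and 10.7% lower. Of the 79 large fallers 55.7% were lower and 25.3% higher, with a median of -1.23. At 24 h APF against L3 (17.9% of all transcripts higher and 17.3% lower), 35.3% of risers were higher and 41.7% of fallers lower, and of the 289 large risers 30.1% were higher and 20.1% lower. Samples of 18 and 24 h APF lacked the notum that L3 samples contained, and its part in these shares was not tested. At 2 h APF the fallers had a median of 11.79 and the risers 10.15, where all log2 values had a median of 9.46. Transcripts above that median were called more often at 6 h against 2 h APF (49.0% against 35.4% of all). Shares over transcripts of like signal were not computed for the later comparisons, so the part of signal in them was not tested. With lists called by limma on the 8 arrays of 6 and 2 h APF alone, 39.7% of 2489 risers were higher and 16.4% lower at 36 h against 24 h APF, and 10.6% of 3004 fallers were higher and 56.7% lower.

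Set beside the other steps between neighbouring stages, that from 2 h to 6 h APF changed 35.4% of transcripts in limma. The step from L3 to 2 h APF changed 21.4%, that from 6 to 18 h APF 40.5%, that from 18 to 24 h APF 12.7% and that from 24 to 36 h APF 50.0%. The steps differ in length, the notum was lost between 6 and 18 h APF, and 36 h APF had fewer independent arrays. The shares are therefore not like measures of change. Neighbouring steps share arrays, and their sizes were not tested against each other. For each transcript, however, the 2 to 6 h step was set against the L3 to 2 h step in a limma contrast, and 3513 (22.7%) differed, 1483 with the later step more positive (9.58%) and 2030 with it more negative (13.1%). Among the single genes SuUR, kis, Fatp1 and sle were in the second set and Wdr24 in the first. Fatp1 had risen by 0.91 between L3 and 2 h APF (adjusted p = 0.00062 from limma) before its level at 6 h APF of the same mean. From L3 to 2 h APF 7 of the 17 single genes were called, and 10 of the 27 transcripts with several reading frames. Over all transcripts 21.4% were called at that step.

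The arrays were taken to lie on 6 slides of 4, where the incomplete slide number of 1 L3 array was read as the slide with an empty position, and 3 slides held an array of each stage. For each of these the limma calls were made again without its arrays and then looked up on it. Risers were higher at 6 h APF in 84.9% of cases on the slide with sample B of both stages, 93.2% on the slide with sample D of 6 h and sample C of 2 h APF, and 98.2% on the slide with sample E of both. Fallers were lower in 93.7%, 94.9% and 98.3% in the same order. Of all transcripts, 45.2%, 46.4% and 50.9% were higher at 6 h APF on these slides. Among the named falls, LanA differed by -0.998, -1.79 and -1.21 within the slides and sle by -1.31, -1.49 and -1.66. The rise of rdx was 0.60, 0.29 and 0.86 within them, and that of His4r 0.18, 1.39 and 0.83. The arrays of these named genes did not overlap, so only the sizes within slides, not the directions, could vary.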

How the data were processed

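After linear amplification and Cy3 labelling, the RNA of 10 dissected wings per sample was hybridized to NimbleGen 4-plex expression arrays. The authors quantile normalized all arrays together with NimbleScan and summarised 3 to 5 probes per transcript with RMA, and the deposited files of the 8 arrays hold linear intensities from 17.5 to 64238. The deposited table of the whole series holds log2 values of the same arrays and was used as an alternative. Quantile normalization hides any change in total RNA, RMA compresses dim differences, and the files give no detection call. The number of arrays limits the precision. For the array design, build and annotation are not given in the sources used, and no coordinates or sequences are shown.

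Samples were grouped by title. With limma 3.58.1 in R 4.3.3, log2 intensities were fitted over the 23 arrays that hold independent samples, with 1 mean per stage, two-sided, and without the array of pooled 36 h APF RNA. No array repeated another. The fit was tested on simulated data. Figures were drawn with matplotlib 3.10.9. The rule for named genes took every transcript tied to a single gene, whatever its values, and the 2 rising and 2 falling unnamed transcripts of largest fold whose arrays did not overlap. The transcripts with several open reading frames were added after their values could be seen. Of the 9 gene lists prepared, 7 had no member tied to a transcript. The members and lists were chosen with earlier results of these data known.

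The alternatives were fits of the 8 arrays alone, the pooled array kept, slide or position on the slide as a block, the replicate letter as a block, an ANOVA without moderation, a trended and robust eBayes, cyclic loess, medians centred again, the log2 table of the series, dim transcripts left out (mean log2 under 9.459), a pseudocount of 50, fold thresholds of 1.5 and 2, Bonferroni adjustment and each array left out. Fits of samples B, D and E without the block, the within-slide lookup, a fit of L3, 2 h and 6 h APF without sample B of 6 h APF and lists called on the 8 arrays alone were added after seeing the data.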

Additional observations from a re-analysis of the deposited data

Results flagged for a closer look

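In 4 of 96 groups of 4 arrays, 1 array stood apart from the other 3 by Dixon's test, for which chance flags about 1 in 20 groups. For Dpm2/CG12016 sample E of 6 h APF read 9.66, where the other 3 lay between 10.19 and 10.20. For Tcs6/PIG-P the same sample read 13.47, above the others at 13.20 to 13.23. For His4r sample B of 6 h APF read 9.92, below the others at 10.28 to 10.36. For SuUR sample C of 2 h APF read 11.94, above the others at 11.53 to 11.56. Leaving out the array concerned ended the call of none of these 4 transcripts.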

How the results depend on the processing

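The count of 5471 changed transcripts kept within 1.5 times under all normalizations, blocks and fits, with 4874 to 5265 when 1 array was left out, and was 2467 for changes over 2-fold and 1756 after Bonferroni adjustment. The transcripts whose steps before and after 2 h APF differed numbered 2806 to 3724 with 1 array left out, and 8 to 9 of the 17 genes were called. Deviations of arrays with the same replicate letter correlated at 0.03, 0.02 and -0.01 for B, D and E. Unlike letters were not compared, and samples B and E also shared a slide across the stages, so whether letters pair the samples was not settled. With the letter as a block over 6 arrays 3733 transcripts and 5 of the 17 genes were called, against 4233 and 8 for the same arrays without the block. SuUR, rdx and His4r lost their calls under the block (adjusted p = 0.097, 0.082 and 0.083 from limma), and SuUR also on these 6 arrays without it (0.066). In every fit that held them LanA, sle, fend, mio and Uba1 were called. The 27 transcripts with several reading frames had 14 calls, 4 under the block and 6 without it. Within slides the direction reversed for CG42497/Tim10 (0.051, sample D of 6 h with C of 2 h APF) and CG42372/CG30100 (-0.24, sample B of both), and no count of calls was made there. The median change of risers from 24 to 36 h APF was 0.22, and 0.60 for those over 2-fold, 0.10 with dim transcripts left out and 0.44 for those called on the 8 arrays alone, and that of fallers was -0.53, -0.70, -0.56 and -0.57. The cause of these shifts was not tested. The calls of Tim10, CG30100 and CG8026 rest on differences near the spread of the arrays.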
